A study of Rattus norvegicus with 84 samples.

Results

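The antioxidant genes described here were Park7, Prdx1, Prdx2, Prdx5, Prdx6, Sod1, Sod2, Gpx1, Gpx4 and Cat, and they were picked by symbol from the long RNA count table. They were 10 of 18782 annotated genes. RNA was sequenced from extracellular vesicles (EVs), the membrane particles that cells shed, which were isolated from the ipsilateral hemisphere and from the plasma of 21 adult male wild-type Sprague-Dawley rats. Stroke was made by transient occlusion of the right middle cerebral artery, and human neural stem cells (hNSCs) or saline were later injected into the common carotid artery. The 7 groups were healthy rats without surgery, and control rats (stroke, saline) and hNSCs rats (stroke, cells) killed 4, 10 or 31 days after stroke, with 3 rats in each group and 1 brain and 1 plasma library from each rat. The control and hNSCs groups shared the occlusion and an arterial injection, which the healthy rats lacked. Brain EVs were isolated from digested tissue by ultracentrifugation followed by size exclusion columns. Plasma EVs were isolated by size exclusion chromatography without digestion or ultracentrifugation, so tissue and isolation method cannot be told apart.

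Superoxide dismutases convert superoxide into hydrogen peroxide, which catalase, peroxiredoxins and glutathione peroxidases then reduce to water. Peroxiredoxins use a reactive cysteine that thioredoxin or glutathione restores, while glutathione peroxidases are selenoenzymes that draw on glutathione directly. Park7, also called DJ-1, is a redox-sensing protein, and many genes of the system respond to the transcription factor Nrf2 through antioxidant response elements.

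The core of such an element, TGACNNNGC, was searched on both strands of the promoters in RefSeq (GRCr8, 250 bases before to 50 after each start site), to show where these genes carry it. Promoters were found for 9 of the 10 genes in 13 windows, and 3 windows held a match, as did 4038 of all 33469 promoters (12.1%). The matching windows are shown 5′ to 3′ on the strand of the gene, with the match in capitals. Each match lay on the opposite strand, so its letters read GCNNNGTCA.
Sod2, chr1:50050185-50050213, gene on the minus strand: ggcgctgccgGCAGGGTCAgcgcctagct
Prdx5, chr1:213532010-213532038, gene on the minus strand: cctcctgtggGCAGAGTCAtctgcgggtg
Prdx1, chr5:135383761-135383789, gene on the plus strand: cagggaaagcGCTGAGTCAtaccccgccg
The match began 35 bases before the start site in Sod2, 1 base before it in Prdx5 and 135 bases before it in Prdx1. A match is a run of letters and not a measured site.

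Levels are given as CPM, counts scaled by the annotated counts of a library and its TMM factor. Brain libraries held 569136 to 15587216 annotated counts and plasma libraries 6357675 to 31028559. All 10 genes were detected in 14 of 21 brain libraries and in 21 of 21 plasma libraries. Brain hNSCs libraries 2 and 3 at 10 days were the lowest, with 1123445 and 569136 annotated counts, 8662 and 6190 genes detected and 5 and 4 of the 10 genes detected. Library 2 was not far from hNSCs library 1 at 4 days, with 1847441 counts, 8828 genes and 7 of the 10. Control library 3 at 10 days also detected 7 of the 10. A count of 0 in hNSCs libraries 2 and 3 at 10 days allows up to 2.66 and 4.52 CPM, a limit of 3 counts that covers counting error only, since the libraries had no molecular identifiers. The 5 neuron markers were all detected in every brain library and summed to 1049 to 4918 CPM there, while plasma libraries detected 1 to 3 of the 5, whose sums of 195 to 4739 CPM overlapped with brain. Hepatocyte markers summed to at most 49.3 CPM in brain but at least 116 CPM in plasma. A gene was called changed at a Benjamini-Hochberg adjusted p under 0.05 over all genes (edgeR quasi-likelihood test) and a change over 1.5-fold.

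Per length, in FPKM, the order of the mean levels in brain EVs was Sod1, Gpx1, Park7, Prdx6, Gpx4, Prdx5, Prdx2, Sod2, Cat and Prdx1. The means ran from 5.21 FPKM ± 5.42 (SD, n = 21) for Sod1 to 0.640 FPKM ± 0.727 for Prdx1. In plasma EVs the order was Gpx1, Prdx2, Sod1, Cat, Sod2, Gpx4, Prdx6, Prdx5, Prdx1 and Park7, from 446 FPKM ± 255 for Gpx1 to 23.3 FPKM ± 9.43 for Park7. Every gap between neighbours in either order was smaller than the larger of the pair's SDs. Within libraries, Gpx1 was above Prdx2 in 21 of 21 plasma libraries.

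In brain EVs, Gpx1, the cytosolic glutathione peroxidase that reduces hydrogen peroxide, differed among the groups. Healthy rats had 13.7, 9.75 and 5.91 CPM of Gpx1. Control rats had 275, 157 and 70.8 CPM at 4 days, 18.7, 655 and 133 CPM at 10 days and 28.9, 45.4 and 22.6 CPM at 31 days. All 9 control libraries were above all 3 healthy ones, and control rat 2 at 10 days was the highest of all. Gpx1 was the 1 of 10 genes that differed among the 7 groups (adjusted p = 0.0211, against 2.09% of 14515 genes called). Against healthy rats it rose at 10 days by 4.81 on the log2 scale (SE 1.10, adjusted p = 0.0473), where 0.572% of genes were called. The log2 difference was 4.13 (SE 1.07, adjusted p = 0.0663) at 4 days, where 0.861% were called and none of the 10 genes was, and 1.76 (SE 0.99, adjusted p = 0.892) at 31 days, where 0.00689% were called and again none was. These comparisons share the 3 healthy rats. The call at 10 days was lost in 17 of 21 fits that left out 1 library, and the log2 difference was 2.99 without control rat 2 at 10 days. It was also lost with the hemoglobin genes left out (adjusted p = 0.0559). Gpx1 was called at both 4 and 10 days when any 1 of the 3 hNSCs libraries at 10 days was left out. This included library 1, the deepest of them (adjusted p = 0.0203 at 4 days and 0.0185 at 10 days). Without library 3, the shallowest, the values were 0.0345 and 0.0296.

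**Figure D1:**
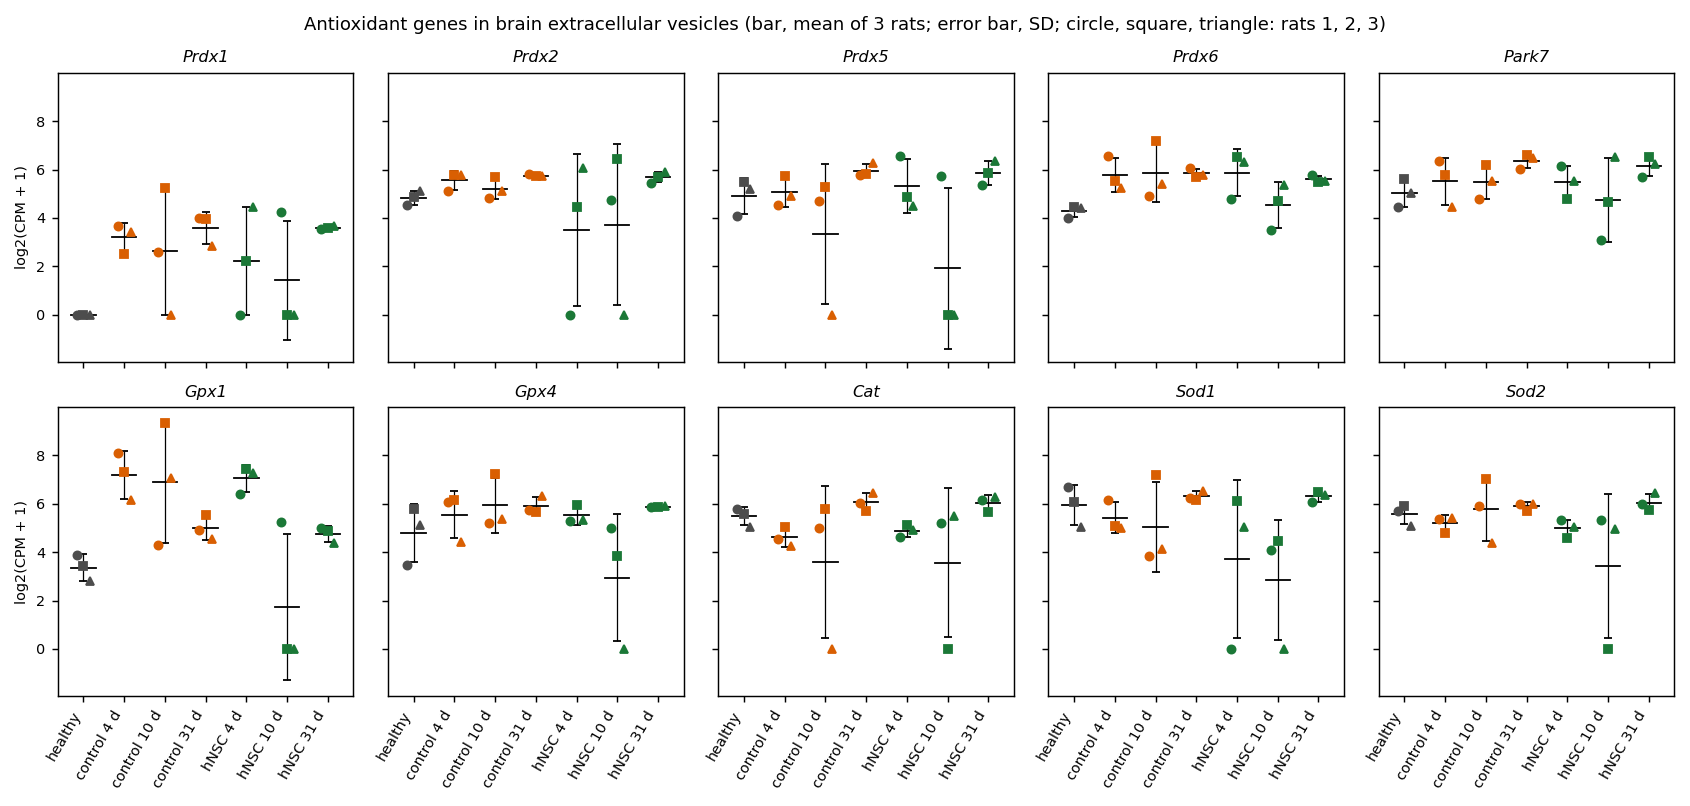
Levels of the 10 genes in brain EVs, as log2(CPM + 1) on the vertical axis for the 7 groups, with bars at the mean of 3 rats, error bars of 1 SD, and circles, squares and triangles for rats 1, 2 and 3. All 9 control values of Gpx1 and of Prdx6 lie above the healthy values, and zeros are most frequent in hNSCs rats 2 and 3 at 10 days but occur in other rats too.

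Prdx6, the 1-Cys peroxiredoxin that can also reduce phospholipid hydroperoxides, had 15.1, 21 and 20.5 CPM in healthy brain EVs. Control rats had 93.9, 45.0 and 36.8 CPM at 4 days, 29.4, 146 and 41.2 CPM at 10 days and 65.0, 51.2 and 53.5 CPM at 31 days. Here too no control library overlapped the healthy range. Gpx1 and Prdx6 were the 2 of 10 genes for which this held, against 2.62% of all genes higher and 4.14% in either direction. The log2 differences of Prdx6 were 1.63 (SE 0.65), 1.93 (SE 0.66) and 1.57 (SE 0.65) at 4, 10 and 31 days, with adjusted p of 0.227, 0.224 and 0.573, and none passed the test. Averaged over the 3 days, none of the 10 genes passed against healthy rats, where 0.186% of genes were called.

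Markers of microglia, the immune cells of the brain, were also higher in control than in healthy brain EVs. Their 5 genes summed to 47.4 to 68.9 CPM in healthy brain EVs, 323 to 681 CPM in controls at 4 days, 126 to 1279 CPM at 10 days and 173 to 314 CPM at 31 days. In hNSCs rats the microglia sum was 482 to 808 CPM at 4 days, 207 to 743 CPM at 10 days and 97.5 to 315 CPM at 31 days. Gpx1 ran from 84.7 to 173, 0 to 36.6 and 19.6 to 30.8 CPM in those groups. Prdx6 ran from 26.3 to 91.3, 10.3 to 40.7 and 44.3 to 53.4 CPM. At 10 days the Gpx1 values of 0 were in hNSCs libraries 2 and 3, the shallowest in brain. Prdx6 was lowest in library 1 and above its healthy range in libraries 2 and 3. The microglia sums of that group were above the healthy range. The 5 astrocyte markers summed to 1022 to 1066 CPM in healthy rats and 2249 to 4673 CPM in controls. Over the 21 brain libraries, which share depth and group, the microglia sum had Pearson's r of 0.47 with Gpx1 and 0.62 with Prdx6, the astrocyte sum 0.37 and 0.66, and the neuron sum -0.59 and -0.61, as a description. The neuron sum was 3000 to 3975 CPM in healthy rats and 1344 to 2244 CPM in controls at 4 days. Control rat 2 at 10 days, with the highest Gpx1 and Prdx6, had a neuron sum of 1049 CPM, the lowest in brain, and a sum of 11624 CPM for the 5 oligodendrocyte markers, the highest. The part of these cell types in the differences was not tested, and in bulk EV RNA fewer vesicles of a cell type and less RNA per vesicle cannot be told apart.

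Prdx1, a cytosolic enzyme with a pair of active cysteines, had no count in any healthy brain library. It had 11.6, 4.76 and 9.74 CPM in controls at 4 days, 5.11, 36.8 and 0 CPM at 10 days and 14.9, 14.7 and 6.15 CPM at 31 days. Against a floor of 3 counts over the healthy group (0.317 CPM), the pooled control level was 29.4-fold higher at 4 days and 41.0-fold higher at 31 days. That floor covers counting error only and not the spread between rats, so these values are not lower bounds. None of the 3 days passed the test, with adjusted p of 0.153, 0.182 and 0.483 in order of time. Prdx2, its close relative, had 22.3, 28.1 and 33.2 CPM in healthy rats and 55.2, 51.9 and 51.6 CPM in controls at 31 days, which did not overlap but gave an adjusted p of 1. Prdx5, found in mitochondria and peroxisomes, ran from 0 to 94.4 CPM over the 21 libraries, with 15.8, 43.6 and 35.2 CPM in healthy rats and 53.8, 55.5 and 75.4 CPM in controls at 31 days, which did not overlap.

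Sod1, the cytosolic copper-zinc superoxide dismutase, had 102, 66.2 and 32.4 CPM in healthy brain EVs and 75.0, 70.8 and 91.9 CPM in controls at 31 days, and these ranges overlapped. Sod2, its mitochondrial manganese counterpart, ranged from 33.2 to 58.5 CPM in healthy rats and from 20 to 129 CPM in controls at 10 days. Cat, the peroxisomal catalase, had 53.9, 47.2 and 32.4 CPM in healthy rats and 22.6, 31.9 and 18.2 CPM in controls at 4 days, all lower, as for 10.4% of all genes, with a log2 difference of -0.88 (SE 1.01, adjusted p = 0.877). Gpx4, which reduces lipid hydroperoxides in membranes, had 10.1, 54 and 33.5 CPM in healthy rats and 35.8, 150 and 39.9 CPM in controls at 10 days. Gpx4 and Park7 overlapped with healthy rats at 4 and 10 days. Park7 was higher in all 3 controls at 31 days (63.4, 97.2 and 86.9 against 20.8, 47.4 and 31.2 CPM), with a log2 difference of 1.31 (SE 0.69, adjusted p = 0.798). Such separation was common at 31 days, where 6 of the 10 genes and 18.9% of all genes were higher without overlap.

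At 31 days all 10 fitted log2 differences from healthy rats were positive, with a median of 0.94 beside 0.24 over all genes. The annotated share of the counts moved too, from 7.11 to 20.9% in healthy brain libraries to 30.3 to 43.0% in controls at 31 days. FPKM is scaled to all mapped fragments, annotated or not. On log2(FPKM + 1) with limma, 9 of 9 tested genes of the set were called higher at 31 days, but so were 96.9% of all 4303 genes tested, whose median shift was 1.33 beside 2.01 for the set.

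In brain EVs of hNSCs rats, Gpx1 had 84.7, 173 and 154 CPM at 4 days, 36.6, 0 and 0 CPM at 10 days and 30.8, 28.3 and 19.6 CPM at 31 days. None of the 10 genes passed the test against controls at any day, nor did any gene of 14515 (0%), with 3 of the 10 under an unadjusted p of 0.05 at 10 days and 1945 of all genes. The log2 differences at 10 days were -4.25 (SE 1.07, adjusted p = 0.187) for Gpx1, -2.25 (SE 0.84, adjusted p = 0.326) for Gpx4 and -1.55 (SE 0.66, adjusted p = 0.336) for Prdx6. Prdx6 had 10.3, 24.8 and 40.7 CPM and Gpx4 31.3, 13.3 and 0 CPM in those hNSCs rats, and Gpx4 did not overlap with controls, as for 7.06% of all genes in the same direction. Gpx1 had no count in the low libraries 2 and 3, whereas the lowest Prdx6 value was in library 1, and without libraries 2 and 3 the log2 difference of Prdx6 was -2.82 (adjusted p = 0.773). Gpx1 was called lower at 10 days when control library 1 (adjusted p = 0.0415) or hNSCs library 1 (adjusted p = 0.000766) of that day was left out. Without hNSCs library 1, that group held only the low libraries 2 and 3, both at 0. Without control library 2, the highest, the log2 difference of Gpx1 was -2.45 (adjusted p = 0.598). The mean over the 3 days gave no call among the 10 genes either, where 0% of genes were called. At 31 days the log2 difference of Gpx1 was -0.30 with a 95% interval of -2.12 to 1.52, which does not show that the arms were alike.

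**Figure D2:**
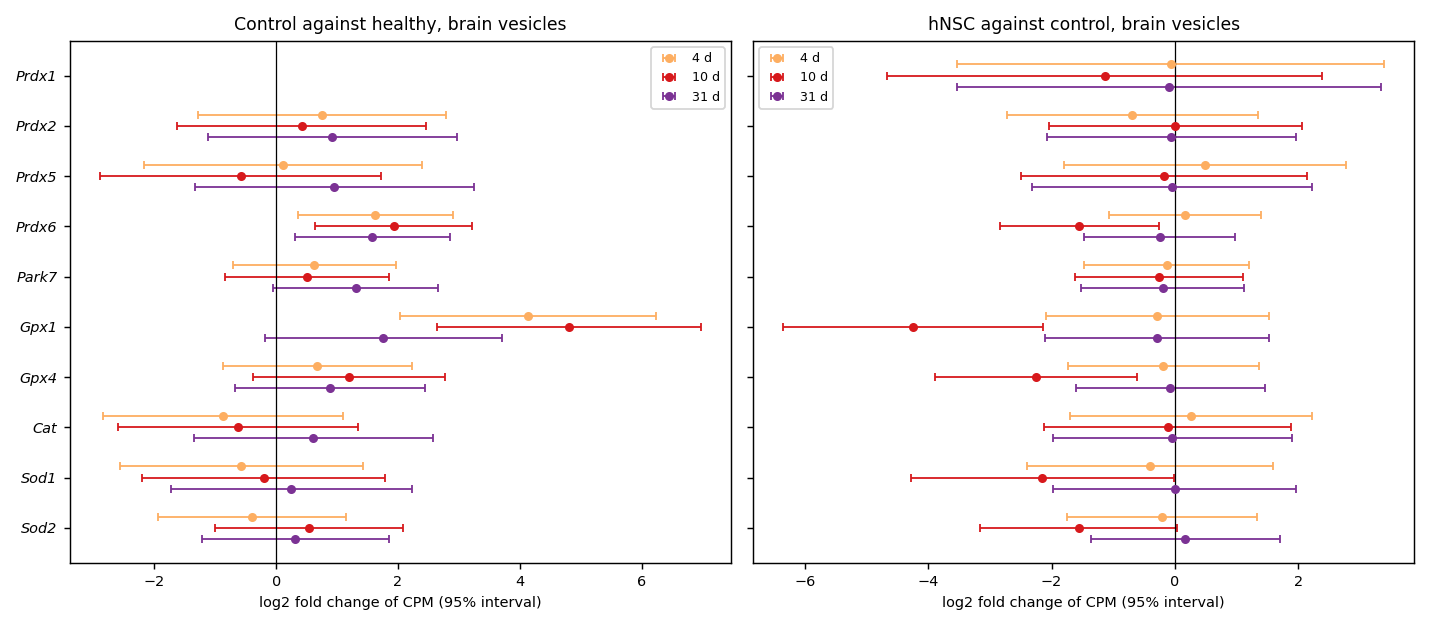
Fitted log2 fold changes in brain EVs (horizontal axis) with 95% intervals for each gene, for controls against healthy rats and hNSCs rats against controls at 4, 10 and 31 days. Gpx1 at 10 days against healthy rats is the 1 called value, and Prdx1 is left out against healthy rats because all 3 healthy libraries were at 0.

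In plasma EVs, Prdx2 and Cat differed among the groups. Prdx2, an abundant protein of red cells, had 288, 267 and 502 CPM in healthy rats. Controls had 209, 366 and 175 CPM at 4 days, 880, 997 and 949 CPM at 10 days and 499, 462 and 1117 CPM at 31 days. The hNSCs rats had 78.2, 206 and 135 CPM at 4 days, 2457, 1638 and 543 CPM at 10 days and 1616, 1297 and 1758 CPM at 31 days. Both arms were low at 4 days, and controls at 10 days were above controls at 4 days without overlap, as for 5.36% of all genes. Prdx2 (adjusted p = 0.00189) and Cat (adjusted p = 0.00725) were the 2 of 10 genes that differed among the 7 groups, where 0.584% of 14720 genes were called.

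Cat had 346, 295 and 473 CPM in healthy plasma EVs. Controls had 257, 185 and 325 CPM at 4 days, 907, 787 and 918 CPM at 10 days and 601, 671 and 623 CPM at 31 days. The hNSCs rats had 328, 188 and 267 CPM at 4 days, 1182, 1161 and 627 CPM at 10 days and 1360, 541 and 885 CPM at 31 days. Cat rose between controls at 4 and at 10 days by 1.77 on the log2 scale (SE 0.37, adjusted p = 0.0315), where 0.387% of genes were called. That call was lost when any 1 of the 6 libraries compared was left out (adjusted p from 0.0516 to 0.201). The same difference for Prdx2 was 1.91 (SE 0.50, adjusted p = 0.154).

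None of the 10 genes passed the test in plasma between controls and healthy rats, where 0.0679% of genes were called at 4 days and 0% at 10 and 31 days and for the mean. At 10 days the log2 difference from healthy rats was 1.42 (SE 0.49, adjusted p = 0.75) for Prdx2 and 1.23 (SE 0.36, adjusted p = 0.688) for Cat. Prdx2, Gpx1, Gpx4 and Cat were higher than in healthy rats without overlap at 10 days, as were 3.64% of all genes. At 31 days this held for Park7, Prdx1, Sod1 and Cat, and for 4.34% of all genes. None passed between hNSCs rats and controls either, where 0.00679% of genes were called at 4 days and 0% at 10 and 31 days and for the mean. At 4 days Gpx1 had 525, 675 and 448 CPM in hNSCs rats and 798, 2226 and 770 CPM in controls, lower without overlap, with a log2 difference of -1.20 (SE 0.46, adjusted p = 0.814), as for 4.36% of all genes. At the last day the order was the other way. Gpx1 had 3414, 2334 and 2838 CPM in hNSCs rats at 31 days and 952, 1183 and 1924 CPM in controls, which did not overlap and gave a log2 difference of 1.08 (SE 0.46, adjusted p = 0.522). Prdx2 did not overlap at 31 days either, with a log2 difference of 1.17 (SE 0.49, adjusted p = 0.522). Prdx1 had 104, 78.3 and 92.6 CPM in hNSCs rats and 151, 108 and 127 CPM in controls at 31 days. Sod1 had 171, 111 and 128 CPM against 264, 281 and 194 CPM. Both were lower in all 3 hNSCs rats, without overlap. The log2 differences were -0.49 (SE 0.39, adjusted p = 0.791) for Prdx1 and -0.85 (SE 0.36, adjusted p = 0.522) for Sod1. Healthy rats ran from 32.0 to 70.2 CPM of Prdx1 and from 115 to 188 CPM of Sod1. Prdx6 had 71.9, 24.5 and 97.3 CPM in hNSCs rats and 199, 238 and 95.3 CPM in controls, which overlapped, and its log2 difference of -1.46 (SE 0.53, adjusted p = 0.522) did not pass the test. Beside the 2 higher and 2 lower genes without overlap, 4.6% of all genes were higher and 6.57% lower without overlap.

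**Figure D3:**
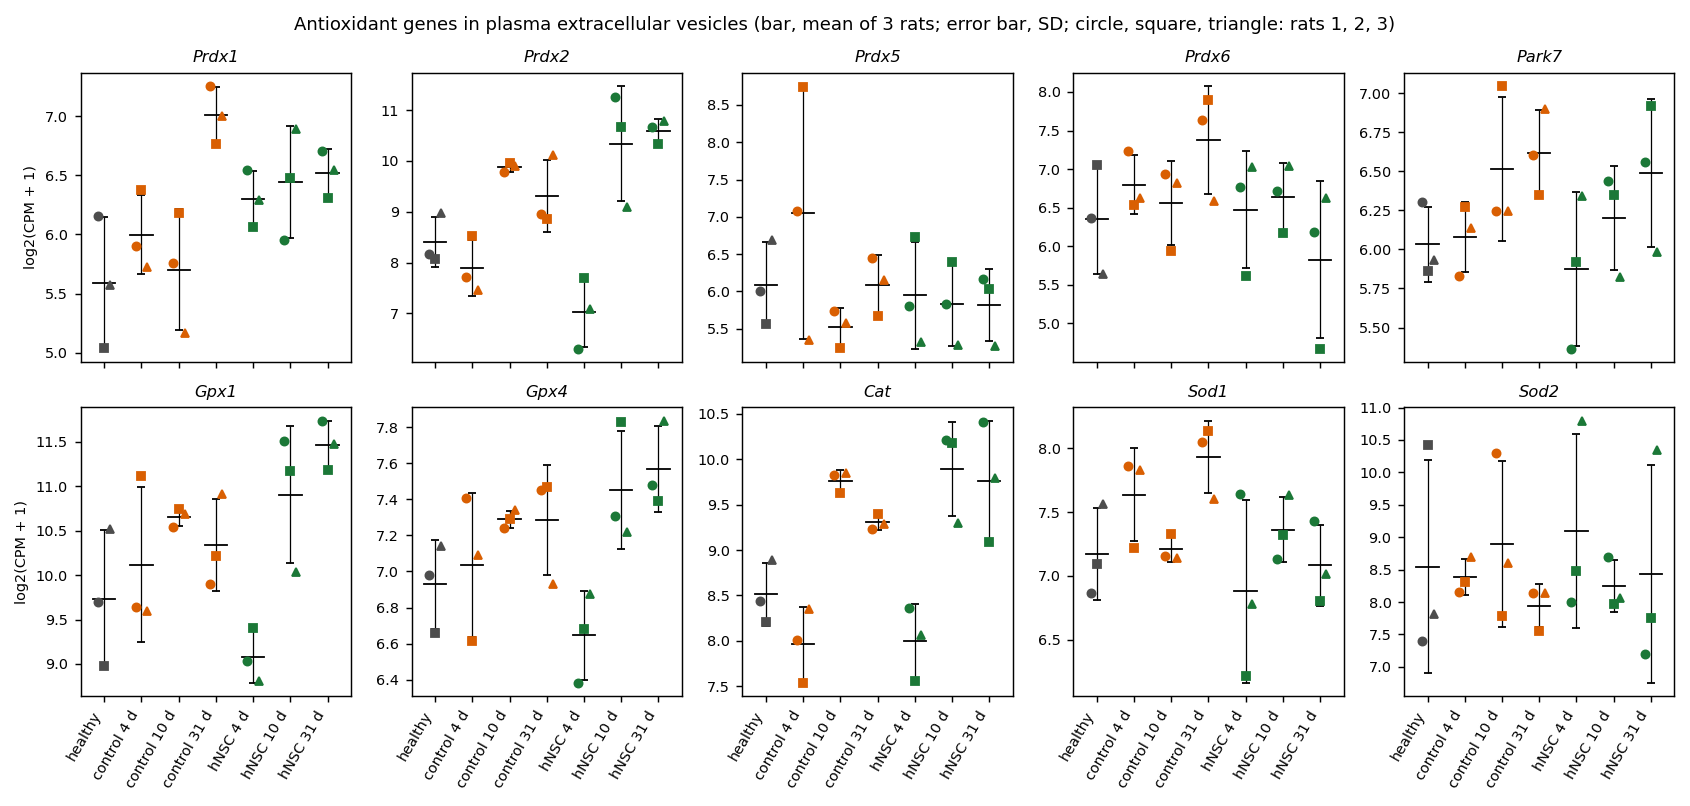
Levels of the 10 genes in plasma EVs, as log2(CPM + 1) on the vertical axis for the 7 groups, with bars at the mean of 3 rats, error bars of 1 SD, and circles, squares and triangles for rats 1, 2 and 3. Prdx2 and Cat are low in both arms at 4 days, and Sod2 has 4 single high libraries.

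Hemoglobin transcripts, which come from red cells, took different shares of the plasma libraries. They made up 4.13 to 10.5% of annotated counts in healthy rats, 0.895 to 3.31% in both arms at 4 days, 14 to 17.6% in controls and 12.5 to 27.9% in hNSCs rats at 10 days, and 6.76 to 17.2% and 21.8 to 28.2% at 31 days. Over the 21 plasma libraries, which share depth and group, this share had Pearson's r of 0.92 with Prdx2, 0.90 with Cat, 0.81 with Gpx1 and 0.71 with Gpx4, as a description. The 6 other red cell markers summed to 192 to 418 CPM in both arms at 4 days and 831 to 11739 CPM in the other groups. The part of red cell RNA in these differences was not tested.

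Sod2 in plasma showed another pattern. It had 1372 CPM in healthy rat 2, 1264 CPM in control rat 1 at 10 days, 1780 CPM in hNSCs rat 3 at 4 days and 1300 CPM in hNSCs rat 3 at 31 days, and 146 to 415 CPM in the other 17 libraries. The 6 platelet markers summed to 16162, 21569, 16885 and 13556 CPM in those 4 libraries, and to 763 to 5600 CPM in the rest. Sums of the neuron list were also highest there, at 2213, 4739, 3859 and 3052 CPM, beside 195 to 1536 CPM in the rest. In those libraries 3, 1, 2 and 1 of its 5 markers were detected. The 4739 CPM thus came from 1 gene, and the sum does not identify neurons. Over the 21 libraries Sod2 had Pearson's r of 0.89 with the platelet sum, 0.89 with the neuron sum and 0.62 with the oligodendrocyte sum, as a description. The part of any cell type in these levels was not tested. Prdx5 had 1 high library, control rat 2 at 4 days, with 426 CPM beside a median of 55.8 CPM. Park7, Gpx4 and Sod1 varied least, from 40.2 to 131 CPM, from 82.4 to 228 CPM and from 73.3 to 281 CPM.

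**Figure D4:**
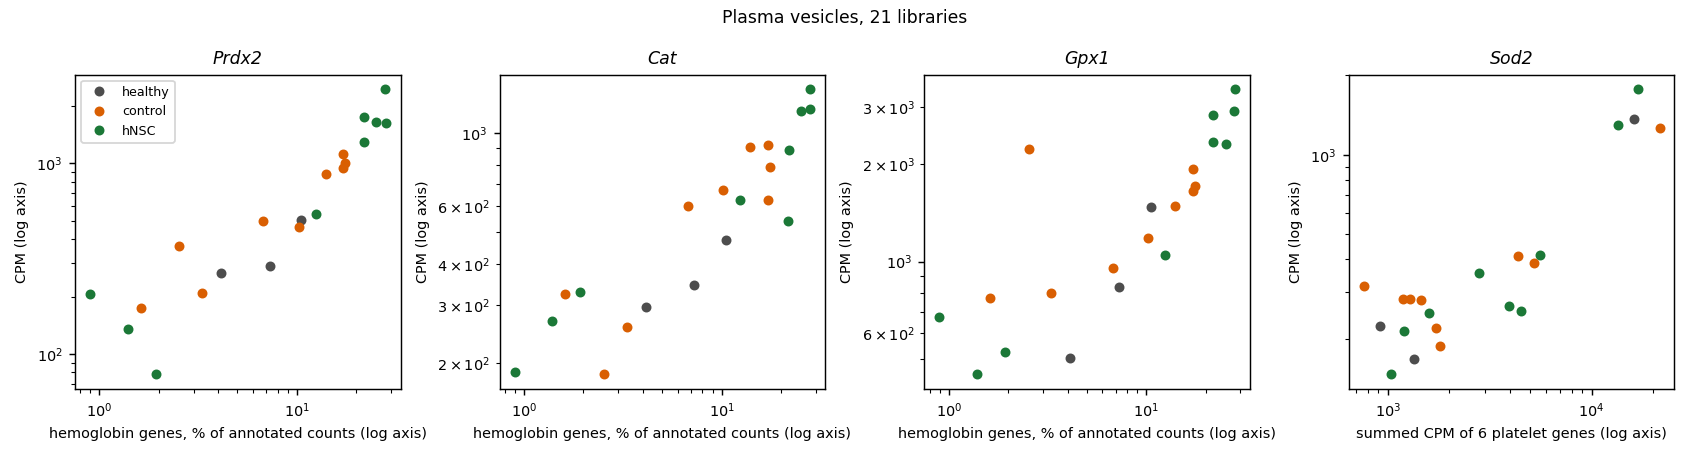
Plasma levels of Prdx2, Cat and Gpx1 (CPM, log axis) against the hemoglobin share of annotated counts (percent, log axis), and of Sod2 against the summed CPM of the 6 platelet markers (log axis), with 1 point per library coloured by arm. Prdx2 and Cat are higher where the hemoglobin share is higher (r = 0.92 and 0.90), and the 4 high Sod2 libraries have platelet sums from 13556 to 21569 CPM.

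All 10 genes were lower in brain EVs than in plasma EVs. Averaged over the 7 groups, the log2 difference ran from -5.22 (SE 0.40, adjusted p = 3.5e-13) for Gpx1 to -1.10 (SE 0.22, adjusted p = 4.26e-05) for Park7, and all 10 were called, where 54.3% of 16945 genes were called and 25.3% were lower. Their median was -3.03 beside 0.16 over all genes. Prdx1 (-4.75, SE 0.54), Prdx2 (-4.30, SE 0.37), Cat (-4.29, SE 0.34) and Sod2 (-3.81, SE 0.37) followed Gpx1. In healthy rats alone 7 of 10 were lower, where 22% were called and 10.8% were lower, and Sod1, Park7 and Prdx5 did not pass the test. None of the changes after stroke or with hNSCs differed between the tissues for any of the 10 genes in the test of that difference. That test called 0.159, 0.13 and 0.0177% of all genes for controls and 0.0236, 0.112 and 0.136% for hNSCs rats at 4, 10 and 31 days, and 0.472 and 0.0413% for the means over days. The log2 difference of these changes, brain minus plasma, was for Gpx1 -4.61 (SE 1.32, adjusted p = 0.125) for hNSCs rats against controls and 3.92 (SE 1.31, adjusted p = 0.222) for controls against healthy rats, both at 10 days.

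**Figure D5:**
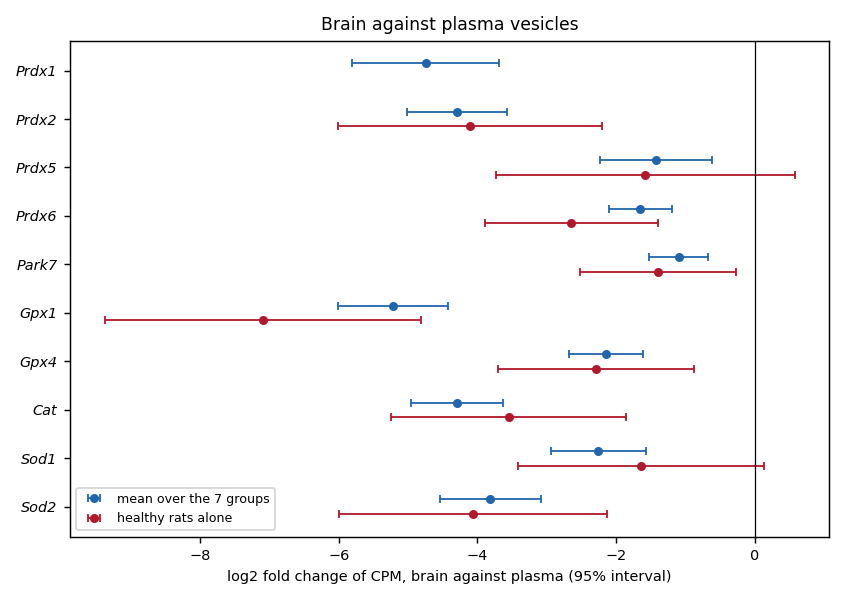
Brain minus plasma log2 differences of the 10 genes with 95% intervals, for the mean of the 7 groups and for healthy rats alone. All plotted points lie below 0, from -5.22 for Gpx1 to -1.10 for Park7 over the 7 groups, and the healthy value of Prdx1 is left out because its brain libraries were at 0.

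The study also asked whether plasma EVs follow the brain. The paper reported Park7 and Prdx6 among hub genes with a high brain-plasma correlation, above all in its control groups. It described most hub genes as higher after stroke and lower with hNSCs in both tissues. Which values it correlated is not stated, so they may differ from those used here. Brain and plasma libraries were paired into 21 rats by the labels. Over genes, the deviations of paired libraries from their group means did not go together (median r 0.0042, highest 0.040). The pairing therefore rests on the labels alone. Over the 21 rats, log2(CPM + 1) of a gene in brain and in plasma had Pearson's r from -0.18 for Cat (permutation p = 0.451) to 0.36 for Prdx2 (permutation p = 0.109). Spearman's rho was 0.23 for Cat (permutation p = 0.323) and 0.20 for Prdx2 (permutation p = 0.387). None of the 10 genes, and none of 12436 genes, passed at an adjusted p under 0.05, and all 10 had an adjusted p of 0.998 by the permutation test. At an unadjusted p under 0.05 there were 572 genes, none of them among the 10. Without the 2 rats farthest from the median brain value, r was 0.17 for Prdx2 and 0.55 for Cat (permutation p = 0.0146, adjusted p = 0.974), so the value for Cat rests on those rats. Park7 had r of 0.07 (permutation p = 0.759) and Prdx6 of 0.01 (permutation p = 0.954). Among control rats alone (n = 9) r was 0.36 for Park7 (p = 0.349), -0.22 for Prdx6 (p = 0.58) and -0.18 for Prdx2 (p = 0.642) by exact permutation, and none of the 10 genes passed after adjustment.

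Of 37 other genes of the antioxidant system, 26 were called between brain and plasma EVs, 23 lower and 3 higher in brain, where 54.3% of all genes were called and 25.3% were lower. The lower ones included Gpx3, the secreted glutathione peroxidase (log2 difference -4.26, SE 0.51), Txn1, the cytosolic thioredoxin (-3.55, SE 0.60), Gsr, which regenerates glutathione (-3.28, SE 0.43), and Nfe2l2, which encodes Nrf2 (-2.61, SE 0.36). The higher ones were Mt3, a brain metallothionein, Slc7a11, the cystine importer, and Srxn1, which repairs overoxidized peroxiredoxins (1.71, SE 0.69, adjusted p = 0.0359). Mt3 was at 16 to 86.1 CPM in brain and at 0 in 20 of 21 plasma libraries. Between groups of one tissue none of the 37 tested in brain or the 36 tested in plasma (Mt3 was not tested there) was called between controls and healthy rats or between hNSCs rats and controls. Over the 7 groups the 1 call was Glrx5, a mitochondrial glutaredoxin used in heme synthesis, which differed among the plasma groups (adjusted p = 0.000642), where 0.584% of genes were called. It had 43.0, 55.3 and 65.7 CPM in controls at 4 days and 216, 243 and 294 CPM at 10 days, low and high in the same groups as Cat and Prdx2.

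RefSeq holds 19 genes named as pseudogenes or relatives of Park7, Prdx1, Prdx6, Sod2 and Gpx4. They were found by symbol, so their likeness in sequence was not measured and copies under other names were not sought. How reads that match several places were counted is not given in the sources used here. The counts of these 5 genes, and of any others with copies, are uncertain to that extent.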

How the data were processed

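Long RNA libraries of brain and plasma EVs (SMARTer Stranded Total RNA-Seq Kit) were analysed, 42 in all. Small RNA libraries were not used here. The authors aligned reads with Bowtie2 to the rat genome Rnor_6.0 and computed FPKM values with StringTie. The deposited raw counts and the deposited FPKM values came as tables of the whole series, and how counts were assigned to genes, strand included, is not given in the sources used here. Rows without a gene symbol were left out, and the rows kept held 3.18 to 51.9% of brain and 45.1 to 75.6% of plasma counts. The labels name the fluid plasma, though their extraction text says serum.

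Counts were tested with edgeR 4.0.16 (R 4.3.3): filterByExpr, TMM factors, quasi-likelihood fits of 7 groups per tissue, and of 14 for brain against plasma, with Benjamini-Hochberg adjustment over all genes. Alternatives used DESeq2 1.42.0, limma 3.58.1 on log2(FPKM + 1), other scalings, filters and libraries left out. In the fits without 1 library across both tissues the dispersion trend of all 42 libraries was kept. Correlations used 100000 resamples. The fits were tested on simulated data.

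All 10 genes are named, and other genes by a list. The genes and lists were chosen with earlier results of these data known. Same-numbered libraries of different groups did not deviate together in the median (r -0.0043 in brain and -0.012 in plasma). The highest r of 63 pairs was 0.30 in brain and 0.25 in plasma. Replicate numbers were not used as pairs in the main fits, and a low median cannot exclude handling shared by some libraries. No 2 libraries of a group were identical. Libraries of a group came from separate rats.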

Additional observations from a re-analysis of the deposited data

Results flagged for a closer look

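Catalase in plasma EVs is listed because its level in control rats moved with time in the test of that difference: it was higher at 10 than at 4 days by 1.77 on the log2 scale (SE 0.37, adjusted p = 0.0315 by edgeR's quasi-likelihood test), with 907, 787 and 918 CPM against 257, 185 and 325 CPM, so that each of the 3 rats killed at 10 days was above each of the 3 other rats killed at 4 days. Separation in this direction held for 5.36% of all genes. The call for catalase was lost when any 1 of these 6 libraries was left out (adjusted p from 0.0516 to 0.201). Hemoglobin transcripts took 14 to 17.6% of annotated counts in the 10-day libraries and 1.62 to 3.31% in the 4-day ones. Their part in the difference was not tested.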

How the results depend on the processing

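The lower level in brain than in plasma EVs held for all 10 genes under every alternative run and in all 42 fits without 1 library, and no alternative reversed the direction of a called value. The counts below are calls among the 10 genes, summed over the days compared. The shares of all genes called under each alternative are not given beside them, so a higher count is not particular to these genes. On log2(FPKM + 1) nearly all genes tested were called higher in brain controls at 31 days, as given above.

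In brain EVs, controls against healthy rats gave 1 call, and DESeq2 gave 6, limma on log2(FPKM + 0.1) 11, on log2(FPKM + 1) 11 and without a filter 10, no filter on low counts 2, all counts as library size 0, no hemoglobin genes 0 and unadjusted p 8. Leaving out hNSCs libraries 2 and 3 at 10 days gave 2, and leaving out control library 2 at 10 days as well gave 2 (both chosen after seeing the data). The hNSCs rats against controls gave 0, with 1 by DESeq2 and 3 at unadjusted p. The test over the 7 groups gave 1, with 3 for all counts as library size, 9, 9 and 10 with the limma fits. The mean of the control groups gave 0, with 3 by DESeq2, 4 and 6 with limma, 1 and 1 without the 10-day libraries and 3 at unadjusted p, and the mean of the hNSCs groups gave 0, with 1 at unadjusted p. Differences between days gave 0, with 1 by DESeq2, 8, 15 and 14 with limma, 2 from fits of only the groups compared, 1 without the 3 libraries at 10 days and 4 at unadjusted p.

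In plasma EVs, controls against healthy rats gave 0, with 3 by DESeq2 and 5 at unadjusted p, and hNSCs rats against controls gave 0, with 1 and 6. The test over the 7 groups gave 2, with 1 for all counts as library size, 1, 1 and 1 with limma and 1 without TMM factors. Differences between days gave 1, with 7 by DESeq2, 14 at unadjusted p, and 0 for all counts as library size, 0, 0 and 0 with limma, 0 without TMM factors and 0 from only the groups compared. The cause of these shifts was not tested.

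Without 1 library, the brain counts ran from 0 to 2 for controls against healthy rats, 0 to 2 for hNSCs rats against controls, 0 to 1 over the 7 groups, 0 to 1 for both means and 0 to 2 for differences between days, and the plasma counts from 2 to 3 over the 7 groups and 0 to 1 for differences between days. With the replicate number as a block, the brain count of controls against healthy rats was 0 in place of 1, and no other count of calls changed. Depth limits the brain values, where a count of 0 allowed up to 4.52 CPM in the shallowest library.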

Other observations

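The genes whose level followed each of the 10 most closely were named by Pearson's r of log2(CPM + 1) over the 21 libraries of a tissue, which share depth and group, so these values are descriptions. In plasma EVs, Cat was nearest to Cdr2 (r = 0.97) and to Ncoa4 (r = 0.96), which carries ferritin to its breakdown. Gpx1 was nearest to Prdx2 (r = 0.91), another gene of the set. Sod2 was nearest to Bcap31 (r = 0.93) and Rab11a (r = 0.93). Among the 45 pairs of the 10 genes, r ran from -0.42 to 0.91 in plasma EVs, with a median of 0.08, and from -0.14 to 0.84 in brain EVs, with a median of 0.35.

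In brain EVs, Prdx6 was nearest to Actb (r = 0.90), the cytoskeletal actin, and Park7 had the loosest neighbours, with Fuca1 (r = 0.75) and Pink1 (r = 0.75), a mitochondrial kinase that, like Park7, is mutated in some inherited forms of Parkinson's disease. Depth moved with the brain levels of several genes: annotated counts had r of 0.69 with Prdx5, 0.65 with Gpx4, 0.62 with Sod1 and 0.61 with Prdx1.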
